A study of Homo sapiens with 12 samples.

Results

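The genes described are those for the coat proteins and cargo receptors of vesicle traffic between the endoplasmic reticulum (ER) and the Golgi apparatus. They were the 39 rows of the deposited gene tables whose gene name was on a list of COPI and COPII coat components, their regulators and cargo receptors, of 36963 genes in all. By the known topology of the proteins, 20 encode soluble coat subunits or coat regulators and 17 encode cargo receptors embedded in the membrane. PREB, a membrane-anchored exchange factor, and MCFD2, a soluble protein of the ER lumen, were kept in neither class. The RNA was that of U251-MG, a line of human astrocytoma cells to which the labels give the cell type astrocyte, grown in medium with 2% serum. Control cells received no manganese and treated cells 100 µM manganese chloride. From each kind of cell, RNA of the cleared lysate (input) and RNA recovered with an antibody against YTHDF2, a cytoplasmic reader of N6-methyladenosine in mRNA, by immunoprecipitation (IP), were sequenced. With 3 libraries each for control and manganese-treated input and for control and manganese-treated IP, there were 4 groups and 12 libraries. The study set out to find mRNAs bound by YTHDF2 and how manganese changes that binding. No IP with another antibody is named in the labels, nor the time of exposure, nor whether libraries of a group came from separate cultures. The p-values therefore reflect the spread among the libraries, which may be technical.

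Proteins made at the ER leave it in vesicles coated with COPII. The GTPase SAR1, loaded by PREB, recruits the inner coat of SEC23 and SEC24, which selects cargo, and the outer coat of SEC13 and SEC31 follows at sites organised by SEC16. COPI, the coatomer, coats the vesicles that carry escaped ER proteins and the receptors themselves back from the Golgi. Cargo receptors span the membrane and join lumenal cargo to a coat: the p24 proteins (TMED genes), the KDEL receptors, which return ER-resident chaperones, the lectins LMAN1 and LMAN2, SURF4 and the ERGIC proteins. Receptor mRNAs are translated on the ER membrane, whereas coat subunits are made in the cytosol.

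Between 16683984 and 28425552 estimated counts were assigned to genes per library. A single gene, PCGF6, held 34.3% to 41.8% of them. The third control IP library had 56.88% of its fragments aligned and the other 11 between 83.7% and 87.12%. In earlier results of these data the first control input, the third control IP and the third manganese IP libraries stood apart from their groups. Leaving out the third control IP library, or these libraries together, is given below where it moves a call or a count of calls. Of the glial markers, VIM averaged 2180.0 CPM, the count scaled to library size by TMM factors, in control input, GFAP 1734 and NES 389, whereas AQP4 was at 0 in every library. With manganese, GFAP averaged 214 CPM in the input and NES 1487. The summed level of 5 neuron markers lay between 2.86 and 16.7 CPM per library with RBFOX3 and STMN2 at 0, and that of 5 microglia markers was at most 1.14 CPM with AIF1, CX3CR1 and P2RY12 at 0. The summed level of 4 epithelium markers lay between 21.9 and 38 CPM in the inputs, between 7.31 and 15 CPM in control IP and between 40.1 and 41.5 CPM in manganese IP, nearly all of it KRT8 and KRT18, with EPCAM and CDH1 at or near 0. The part of these marker levels in the results was not tested.

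Manganese raised the cargo receptor mRNAs in the input as a group, while most coat mRNAs did not pass the test. Of the 17 receptor genes, 15 rose and none fell (edgeR's quasi-likelihood test, adjusted p under 0.05 over 14804 genes tested), against a background of 15% of tested genes called, 11.3% that rose and 3.63% that fell. The median change of the receptors was 1.73 on the log2 scale. Of the 20 coat genes, 19 passed the filter on low counts, 3 rose and none fell, with a median of 0.087. The median of all tested genes was -0.044. Across 3 other scalings of the counts the receptor count stayed at 15 higher and none lower, while with scaling by total counts, where the median over all tested genes is -0.49, the coat count became 0 higher and 1 lower.

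In summed level the receptors measured 1931, 1975 and 1570.0 CPM in the 3 control input libraries and 5181, 5458 and 5928 CPM in the 3 manganese input libraries, with means of 1825 ± 222 and 5522 ± 378 (SD, n = 3). The lowest manganese library thus lay above every control library by more than the spread within either group. The coat subunits together measured 1209, 1143 and 1055 CPM in control input and 1380.0, 1340.0 and 1297 CPM with manganese, with means of 1136 ± 77.4 and 1339 ± 41.6 (SD, n = 3). Scaled per length, as the deposited TPM rescaled to a common total without PCGF6, the mean summed receptor level was 2614 ± 269.5 TPM in control and 6074 ± 329 TPM in manganese input (SD, n = 3), and the mean summed coat level was 1709 ± 37.5 TPM in control and, in the opposite direction, 1413 ± 74.2 TPM with manganese. In these bulk samples, fewer cells of a kind and less RNA per cell cannot be told apart.

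**Figure D1:**
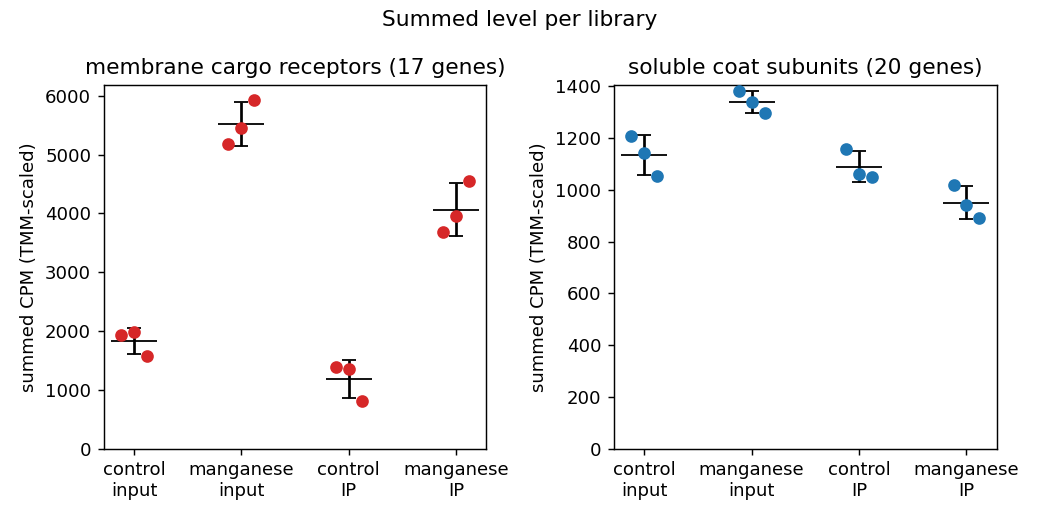
Summed CPM, scaled by TMM factors, of the 17 membrane cargo receptor genes (left) and the 20 soluble coat genes (right) in each of the 12 libraries, with points for libraries, a line for the group mean and bars for the SD (n = 3). The receptor sums of manganese input (5181 to 5928 CPM) and manganese IP (3679 to 4554 CPM) lie above every control library, whereas the coat sums stay between 892 and 1380.0 CPM in all 4 groups.

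The p24 family holds small type I membrane proteins that cycle between the ER and the Golgi and pack, among others, GPI-anchored proteins into COPII vesicles. Of its 8 members, 7 rose in the input. TMED9 measured 26.3, 27 and 20.5 CPM in the control libraries and 104, 108 and 96.6 CPM in the manganese libraries, a 4.19-fold rise (log2 change 2.07 ± 0.18 SE, adjusted p = 7.15e-06 by edgeR). TMED3 went from 65.9, 77.1 and 65.9 CPM to 245, 259 and 282 CPM (log2 change 1.91 ± 0.22, edgeR adjusted p = 4.64e-05). Both groups were well apart for these members, and so they were for TMED10, the partner that p24 complexes share with TMED2. Members with large changes were picked for printing library by library partly because their groups did not overlap. That separation, here and below, is therefore no further support. TMED10 was the receptor mRNA with the most counts and measured 361, 349.9 and 261 CPM in control and 983, 1057 and 1183 CPM in manganese input (log2 change 1.73 ± 0.23, edgeR adjusted p = 0.000128). TMED2, TMED4, TMED5 and TMED7 rose by 1.58, 1.34, 1.68 and 1.71 on the log2 scale, each with groups that did not overlap. TMED1 was close to the detection limit, with 0, 19 and 15 estimated counts in the control input libraries and 59, 66 and 21 with manganese, and its change of 2.64 ± 1.19 on the log2 scale did not pass (edgeR adjusted p = 0.181).

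All 3 KDEL receptors rose in the input. These proteins bind the lysine-aspartate-glutamate-leucine tail of chaperones that have reached the Golgi and bring them back in COPI vesicles. KDELR3 measured 11.8, 20.7 and 13.6 CPM in control and 75.7, 87.1 and 99.4 CPM in manganese input, a 5.69-fold rise (log2 change 2.51 ± 0.36, edgeR adjusted p = 0.00029). The more abundant KDELR1 went from 165, 176 and 135 CPM to 498, 523 and 561 CPM (log2 change 1.73 ± 0.24, edgeR adjusted p = 0.000241), and KDELR2 rose by 1.53 ± 0.22. For each of them every manganese library lay above every control library. Per length, KDELR1 stayed the highest of the family in both inputs, at 263 ± 31.4 TPM in control and 656 ± 33.6 TPM with manganese, with KDELR2 at 155 ± 18 and 321 ± 39.3 TPM and KDELR3 at 23.9 ± 6.88 and 109 ± 15.5 TPM (SD, n = 3). The order of the 3 genes was thus the same in both inputs, with means separated by more than their SDs.

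The lectins and the remaining receptors were higher with manganese in the input, and all but ERGIC2 passed the test. LMAN1, which with its partner MCFD2 carries coagulation factors V and VIII out of the ER, measured 63.2, 41.4 and 28 CPM in control and 204, 200.3 and 247 CPM in manganese input (log2 change 2.30 ± 0.39, edgeR adjusted p = 0.00101). LMAN2, a lectin for high-mannose glycoproteins, went from 45, 56.7 and 45.3 CPM to 176, 168 and 177 CPM (log2 change 1.82 ± 0.22, edgeR adjusted p = 7.39e-05). SURF4, an export receptor for soluble proteins of the lumen, went from 96.4, 82.3 and 69.3 CPM to 280.1, 275 and 304 CPM (log2 change 1.79 ± 0.18, edgeR adjusted p = 1.92e-05). In all 3 cases the groups did not overlap, which was a condition for printing them. Of the ERGIC proteins, which cycle through the ER-Golgi intermediate compartment, ERGIC3 rose by 1.63 and ERGIC1 by 0.86 on the log2 scale. The calls of ERGIC1 and TMED5 were each lost under 1 alternative. ERGIC2 had a change of 0.68 ± 0.26 and did not pass (edgeR adjusted p = 0.116), although each manganese library, at 88.2, 81.5 and 98.8 CPM, lay above each control library, at 65, 56.7 and 46.3 CPM. MCFD2 had a change of 0.74 ± 0.24 (edgeR adjusted p = 0.0555) and PREB one of -0.24 ± 0.30 (adjusted p = 0.719).

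The 3 coat mRNAs that rose in the input were SEC24D, COPA and COPG1, by 0.67, 0.61 and 0.55 on the log2 scale. SEC24D is a cargo-binding subunit of the COPII inner coat, and COPA and COPG1 are coatomer subunits. Each of these calls was lost under some of the 25 alternatives tried, COPG1 under 10, SEC24D under 7 and COPA under 3. The other COPII and COPI subunits did not pass. SEC13 measured 48.7, 53.5 and 56.7 CPM in control and 58.8, 57.7 and 52.3 CPM in manganese input, SEC31A 54.2, 50.8 and 38.9 CPM and 51.5, 46.9 and 49.5 CPM, and COPB2 231, 194 and 178 CPM and 223, 207 and 203 CPM. The groups overlapped for these 3 subunits. Among the 19 measured coat genes the change ran from -0.66 to 0.67 on the log2 scale, and among the receptors from 0.68 to 2.64. COPZ2 had no count in any of the 12 libraries.

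**Figure D2:**
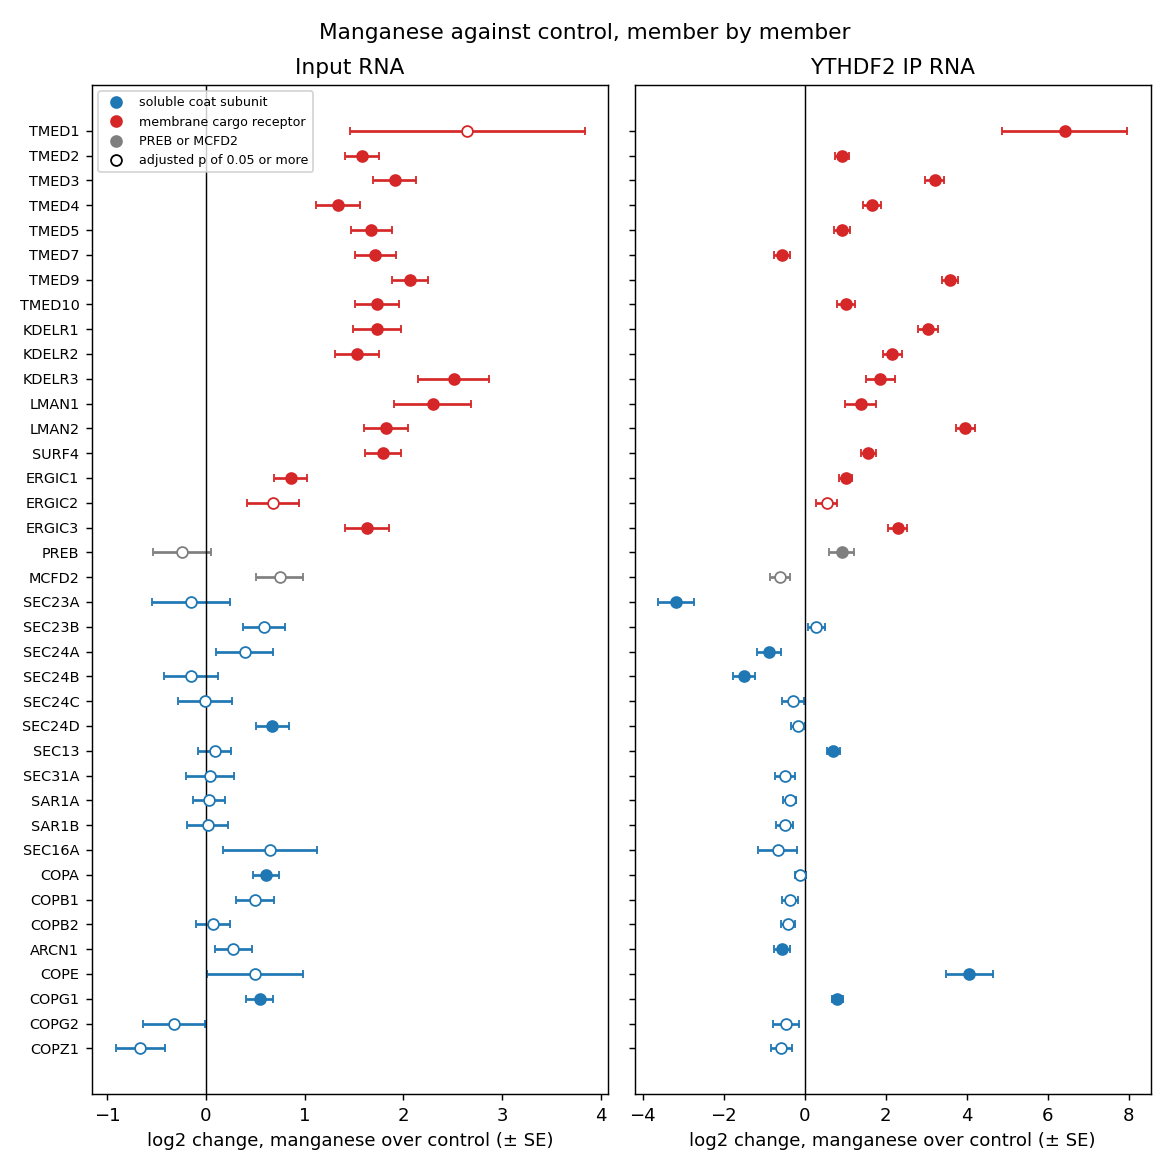
Log2 change with manganese for each of the 38 measured members in input RNA (left) and in YTHDF2 IP RNA (right), with bars for ± SE from edgeR and filled points where the adjusted p is under 0.05. In the input the receptors span 0.68 to 2.64 and the coat subunits -0.66 to 0.67, and in the IP TMED7 is the 1 receptor that lies below 0.

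Among 52 other genes of ER-Golgi transport (tethers, SNAREs, small GTPases and their regulators), 47 were measured, of which 11 rose and 1 fell with manganese in the input, with a median of 0.17 on the log2 scale. The largest rises were those of LMAN2L, a membrane lectin related to LMAN2 (log2 change 2.06 ± 0.33, edgeR adjusted p = 0.000681), and of BCAP31, an ER membrane protein that escorts membrane cargo (1.81 ± 0.24, adjusted p = 0.00015). The gene that fell was GOSR1, a Golgi SNARE (-0.49 ± 0.14, adjusted p = 0.0309), a call lost under 6 alternatives. The share that rose in this list was 11 of 47, against 15 of 17 receptors and 3 of 19 coat genes. Over all tested genes 11.3% rose and 3.63% fell.

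Promoter sequence was examined because the receptor mRNAs moved together in the input. RefSeq windows on GRCh38.p14, of 250 bases before to 50 bases after the gene start, were given for 34 of the 39 members. The letters TGACGTG, the core of an element bound by unfolded protein response factors, were searched on both strands and were present in 8 of 19 coat windows, in 1 of 13 receptor windows and in 3.36% of 10283 tested genes with a window. The shorter CCACGT, which can overlap TGACGTG where a G follows, was present in 14 of 19 coat and 6 of 13 receptor windows, against 15.3% of tested genes. Neither the ER stress element, CCAAT followed after 9 bases by CCACG (0.156% of tested genes), nor a second ER stress element, ATTGG followed after 1 base by CCACG (0.126%), nor the cAMP response element TGACGTCA (3.71%) was in a coat or receptor window. The stretches below are from members whose first match, with the 17 bases printed after it, lay before the gene start. Capitals mark TGACGTG or its reverse complement in the coat genes and in KDELR3, and CCACGT or its reverse complement in the other receptors. Each stretch is read 5′ to 3′ on the strand of the gene.
SEC24A: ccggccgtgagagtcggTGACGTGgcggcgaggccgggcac
SEC13: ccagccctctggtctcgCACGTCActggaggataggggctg
COPB1: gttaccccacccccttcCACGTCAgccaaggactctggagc
COPB2: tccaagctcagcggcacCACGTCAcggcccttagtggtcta
KDELR3: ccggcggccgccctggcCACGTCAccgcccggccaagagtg
TMED2: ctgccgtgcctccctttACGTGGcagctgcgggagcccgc
TMED7: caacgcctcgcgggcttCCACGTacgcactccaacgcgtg
TMED10: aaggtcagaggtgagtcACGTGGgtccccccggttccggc
SURF4: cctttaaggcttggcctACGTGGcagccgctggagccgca
These stretches lie at chr5:134648589-134648629 on the plus strand (SEC24A), chr3:10321232-10321272 on the minus strand (SEC13), chr11:14499835-14499875 on the minus strand (COPB1), chr3:139389819-139389859 on the minus strand (COPB2), chr22:38468034-38468074 on the plus strand (KDELR3), chr12:123584440-123584479 on the plus strand (TMED2), chr5:115626110-115626149 on the minus strand (TMED7), chr14:75176619-75176658 on the minus strand (TMED10) and chr9:133376091-133376130 on the minus strand (SURF4). The matches start 179, 143, 47, 162, 45, 95, 96, 29 and 53 bases before the gene start, in that order. Of the genes shown, the 5 receptors rose with manganese in the input and the 4 coat genes did not pass. The choice of stretches bears on this contrast, since coat genes were shown for TGACGTG only. COPA, whose window held TGACGTG, and COPG1, whose window held CCACGT, are not shown and rose in the input by 0.61 and 0.55 on the log2 scale. A match describes letters in a window and not a bound site.

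In control cells, 9 of the 17 receptor mRNAs were at lower levels in the YTHDF2 IP than in the input, and none was higher. The number was 7 with a correction for transcript length and from 7 to 9 with 1 library left out. The median log2 ratio of the receptors was -0.68, whereas of 19 coat genes 7 were lower and 4 higher, with a median of -0.37. Over all tested genes 31.3% were called, 14.2% lower and 17.2% higher, with a median of 0.041. Scaled by total counts, where the median over all tested genes is -0.26, 15 receptors were lower and none higher, and coat genes split into 1 higher and 10 lower. The input was purified for poly(A) RNA with a separate kit before library preparation, which the labels do not state for the IP, and the part of that step in the ratios was not tested.

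TMED2 was the p24 mRNA most depleted in the control IP among those well above the detection limit. It measured 38.1, 56.9 and 38.5 CPM in the 3 control IP libraries, against 222, 235 and 196 CPM in the inputs, a ratio of IP to input of -2.29 ± 0.18 on the log2 scale (edgeR adjusted p = 3.75e-06). SURF4 measured 21.7, 30 and 31.4 CPM in the control IP (log2 ratio -1.58 ± 0.18, adjusted p = 3.35e-05). ERGIC3 measured 63.7, 72.4 and 54.5 CPM in control input and 28.2, 29.6 and 15.3 CPM in control IP (log2 ratio -1.38 ± 0.22, adjusted p = 0.000375). The groups did not overlap for any of these receptors, which was a condition for printing them. LMAN2, KDELR1, TMED9, ERGIC1 and TMED3 were lower by smaller amounts, with log2 ratios of -1.22, -0.98, -0.74, -0.73 and -0.68. With the correction for length, the ratio of TMED9 was -0.016 (edgeR adjusted p = 0.963) and that of TMED3 was -0.46 (adjusted p = 0.13), so that neither passed. TMED1 passed as well, on 0, 1 and 0 counts in the control IP libraries, and is given no ratio for that reason. Its call was lost under 14 alternatives.

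Among the coat genes, COPE, the epsilon subunit of coatomer, was nearly absent from the control IP. It measured 14.4, 20.3 and 20.8 CPM in control input and 0.169, 1.82 and 1.98 CPM in control IP, from 4, 42 and 38 estimated counts, a log2 ratio of -3.82 ± 0.56 (edgeR adjusted p = 0.000194). SEC23A, the GTPase-activating subunit of the inner coat, went from 86.8, 70.2 and 75.5 CPM to 15.5, 19.8 and 51.3 CPM (log2 ratio -1.43 ± 0.41, adjusted p = 0.016). The third control IP library of SEC23A lay far above the other 2, and the call was lost without the first (log2 ratio -1.08, adjusted p = 0.0771 by edgeR) or the second control IP library (-1.22, adjusted p = 0.0651). ARCN1, the delta subunit of coatomer, went from 35.4, 37.6 and 36.9 CPM to 12, 12.3 and 17.6 CPM (log2 ratio -1.39 ± 0.19, adjusted p = 0.000126). SAR1A, the GTPase that starts the COPII coat, went from 77.7, 72.7 and 57.4 CPM to 31.9, 31 and 25.6 CPM (log2 ratio -1.23 ± 0.17, adjusted p = 0.000101). For these subunits the control IP libraries lay below every control input library. PREB, the exchange factor of SAR1, measured 16.5, 15.8 and 16.4 CPM in control input and 4.22, 6.31 and 6.73 CPM in control IP (log2 ratio -1.5 ± 0.31, adjusted p = 0.00206), a call lost under 2 alternatives. SEC13, COPZ1 and SEC24A were lower with log2 ratios of -1.02, -0.997 and -0.86, and the call of SEC24A was lost under 12 of the alternatives. With the correction for length the ratio of COPZ1 was -0.035 (adjusted p = 0.942). The 4 coat genes higher in the control IP were SEC23B, COPG2, COPB1 and COPA, with log2 ratios of 1.02, 1.01, 0.65 and 0.44. For COPB1 the IP and input libraries overlapped. The calls of COPG2, COPB1, COPA and SEC23B were lost under 9, 8, 6 and 2 alternatives, and on log2(TPM + 1) the ratio of COPA was -0.49. With 1 library left out, between 1 and 6 coat genes were higher. The count was 1 without the second control input library, 2 without the third control input, first control IP or second control IP library, and 6 without the third control IP library.

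In manganese-treated cells, receptors stood on both sides of the input level. Of the 17, 3 were higher and 9 lower in the IP, against 14.8% and 17.6% of tested genes (32.4% in both directions), and of 19 coat genes 2 were higher and 9 lower. The receptors that were higher were LMAN2, TMED9 and TMED3, with log2 ratios of 0.92 ± 0.22, 0.78 ± 0.18 and 0.61 ± 0.21 (edgeR adjusted p = 0.00533, 0.00453 and 0.0406). The calls of TMED3 and LMAN2 were lost under 9 and 2 alternatives. In control cells the same 3 receptors were lower than input, but for TMED9 and TMED3 not with the correction for length, as given above. TMED2 remained the most depleted receptor, at 609.6, 666 and 681 CPM in manganese input and 88.4, 81.9 and 82.7 CPM in manganese IP (log2 ratio -2.95 ± 0.18, adjusted p = 1.56e-06). TMED7 measured 479, 510.0 and 564 CPM in manganese input and 95.5, 101 and 67.7 CPM in manganese IP (log2 ratio -2.56 ± 0.21, adjusted p = 4.57e-06). SURF4 had 92.2, 76.9 and 77.5 CPM in manganese IP (log2 ratio -1.80 ± 0.18, adjusted p = 1.82e-05). In each of these cases the IP libraries lay below all 3 inputs. TMED5, TMED10, KDELR3, LMAN1, ERGIC1 and ERGIC3 were lower as well, with log2 ratios from -0.57 (ERGIC1) to -1.26 (LMAN1). The calls of ERGIC3, KDELR3 and LMAN1 were lost under 5, 3 and 2 alternatives, and with the correction for length the ratio of ERGIC3 was -0.21 (adjusted p = 0.461).

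The coat gene with the lowest ratio in manganese-treated cells was SEC23A. It measured 71, 76.6 and 61.9 CPM in manganese input and 3.75, 4.36 and 1.49 CPM in manganese IP, 21.8-fold lower (log2 ratio -4.45 ± 0.47, edgeR adjusted p = 2.27e-05). SEC24A went from 112, 105 and 99.5 CPM to 26, 32.4 and 13.8 CPM (log2 ratio -2.13 ± 0.30, adjusted p = 0.000182). ARCN1 went from 48.5, 43.7 and 40.9 CPM to 8.52, 9.72 and 10.2 CPM (log2 ratio -2.23 ± 0.20, adjusted p = 8.2e-06). The IP and input libraries were separate for each of these subunits, which was a condition for printing them. SAR1A measured 68.9, 68.4 and 75.6 CPM in manganese input and 22.7, 23.9 and 21.7 CPM in manganese IP (log2 ratio -1.64 ± 0.17, adjusted p = 1.96e-05). MCFD2 measured 219, 245 and 244 CPM and 70, 67.4 and 64.3 CPM (log2 ratio -1.81 ± 0.25, adjusted p = 0.000133). Of the 6 genes of the COPII inner coat, 5 had lower levels in IP than input RNA of treated cells and SEC23B was higher (log2 ratio 0.71 ± 0.21, adjusted p = 0.0199). Of these calls, those of SEC24B, SEC24C and SEC23B were lost under 7, 4 and 1 of the alternatives. The calls of SEC31A and COPZ1, also lower in the IP, were lost under 7 and 4. The other coat gene that was higher was COPG2, at a log2 ratio of 0.88, whose call was lost under 12 alternatives. Leaving out the first manganese input or the third manganese IP library brought the number of coat genes called from 11 to 6.

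Manganese also raised most receptor mRNAs in the YTHDF2 IP. Of the 17 receptors, 15 rose and 1 fell there, against 42.9% of tested genes called, 20.4% that rose and 22.5% that fell, with a median of 1.67 on the log2 scale. Of 19 coat genes, 3 rose and 4 fell, with a median of -0.40, and the median of all tested genes was -0.086. Scaled by total counts, the receptor counts were the same and the coat genes split into 3 higher and 12 lower. On log2(TPM + 1) the coat genes split into 2 higher and 11 lower, and the receptors into 14 higher and 1 lower. The summed receptor level was 1387, 1346 and 813 CPM in control IP and 3679, 3954 and 4554 CPM in manganese IP. The summed coat level was 1157, 1062 and 1051 CPM in control IP and 1019, 940.3 and 892 CPM in manganese IP. The receptor sums did not overlap, and the third control IP library gave the lowest of them. Keratin mRNAs, the 2 epithelium markers that were measured, moved the same way: KRT8 and KRT18 rose in the IP by 1.57 and 1.94 on the log2 scale (edgeR adjusted p = 0.00235 and 9.82e-05). The summed level of 8 astrocyte and glioma markers was 4031 to 5932 CPM in control IP and 7233 to 7459 CPM in manganese IP. Of the 7 that were measured, however, 1 rose and 3 fell in the IP, with a median of -1.06 on the log2 scale. NES rose, from a mean of 600.5 CPM in control IP to 4131 CPM in manganese IP. GFAP fell from 1668 to 629 CPM, and S100B and SLC1A3 fell as well. The part of these markers in the receptor values was not tested.

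LMAN2 rose most among the receptors well above the detection limit. It measured 15.8, 26 and 21.4 CPM in control IP and 241, 333 and 409.7 CPM in manganese IP, a 15.6-fold rise (log2 change 3.96 ± 0.24, edgeR adjusted p = 1.63e-07). TMED9 went from 14.4, 18.2 and 11.6 CPM to 173, 169.6 and 188 CPM, a 12-fold rise (log2 change 3.58 ± 0.20, adjusted p = 9.99e-08). TMED3 went from 50.5, 50.7 and 28.9 CPM to 351, 364 and 487 CPM (log2 change 3.21 ± 0.23, adjusted p = 4.4e-07). Every manganese IP library exceeded every control IP library several times for these receptors. KDELR1 went from 91.4, 103 and 47.9 CPM to 575, 639 and 776 CPM (log2 change 3.04 ± 0.26, adjusted p = 1.56e-06). KDELR2 went from 164, 155 and 87.2 CPM to 523, 572 and 729 CPM (log2 change 2.16 ± 0.23, adjusted p = 8.55e-06). ERGIC3, at 123, 110.3 and 124 CPM in manganese IP, rose by 2.29 ± 0.23 on the log2 scale (adjusted p = 5.69e-06). In these members, too, the third control IP library was the lowest of its group. KDELR3, TMED4, SURF4, LMAN1, TMED10, ERGIC1, TMED2 and TMED5 rose by 1.86, 1.67, 1.57, 1.38, 1.02, 1.01, 0.92 and 0.92 on the log2 scale, and on log2(TPM + 1) the change of TMED5 was -0.31. TMED1 also passed, from 0, 1 and 0 counts to 52, 45 and 19. TMED7 was the receptor that fell, by 0.56 ± 0.20 on the log2 scale (adjusted p = 0.0381 by edgeR), a call lost under 6 alternatives.

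Of 19 coat genes, the 3 that rose and the 4 that fell in the IP were no larger a share than that of tested genes (20.4% and 22.5%). COPE measured 0.169, 1.82 and 1.98 CPM in control IP and 20.1, 21.8 and 24 CPM in manganese IP, a 16.7-fold rise (log2 change 4.07 ± 0.57, edgeR adjusted p = 8.17e-05). COPG1 and SEC13 rose by 0.80 and 0.71 on the log2 scale, and the call of SEC13 was lost under 2 alternatives. SEC23A went from 15.5, 19.8 and 51.3 CPM to 3.75, 4.36 and 1.49 CPM, a 9-fold fall (log2 change -3.17 ± 0.45, adjusted p = 8.76e-05). SEC24B, SEC24A and ARCN1 fell by 1.5, 0.88 and 0.56 on the log2 scale, and the calls of ARCN1 and SEC24A were lost under 15 and 8 alternatives. Of the 2 genes in neither class, PREB rose by 0.91, a call lost under 11 alternatives, and MCFD2 measured 75.4, 79.4 and 154 CPM in control IP and 70, 67.4 and 64.3 CPM in manganese IP and did not pass. For the other transport genes 16 of 47 rose and 6 fell in the IP, against 20.4% and 22.5% of tested genes. RINT1 and BET1 fell most, by 1.11 ± 0.32 and 1.07 ± 0.35 on the log2 scale (edgeR adjusted p = 0.0136 and 0.0251), calls lost under 1 and 4 alternatives. The largest rises in that list were those of CREB3L1 and USE1, which are listed without a value because all 3 control IP libraries were at 0. The call of USE1 was lost under 7 alternatives.

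Members of the same class differed in their change of enrichment, the log2 ratio of IP to input in treated cells minus that in control cells. A total of 12 members passed, 5 with a gain and 7 with a loss, against 17.1% of tested genes called, 6.94% that gained and 10.2% that lost. Among receptors, LMAN2, TMED9, KDELR1 and TMED3 gained and TMED7 lost. KRT8 and KRT18 gained as well, by 1.56 and 1.54 on the log2 scale (edgeR adjusted p = 0.0395 and 0.0154). Among coat genes, COPE gained and SEC23A, SEC24B, COPB1, SEC24D and COPA lost, and MCFD2 lost as well. The medians were 0.16 for receptors, -0.51 for coat genes and -0.17 for all tested genes. Scaled by total counts, where the median over all tested genes is at 0, the members split into 8 gains and 4 losses. Without the third control IP library 20 members passed, with 6 gains and 14 losses, and among receptors 4 gained and 5 lost. Without the third control input, the second manganese input, the third manganese input or the third manganese IP library, 7 members passed in each case, with 5 gains and 2 losses. This comparison uses the same libraries as the 4 others, so its values are not separate evidence from them.

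LMAN2 gained 4.40-fold in the ratio of IP to input, from a log2 ratio of -1.22 in control cells to 0.92 with manganese (change 2.14 ± 0.31, edgeR adjusted p = 0.00143). TMED9 went from -0.74 to 0.78 (change 1.52 ± 0.25, adjusted p = 0.00243). KDELR1 had a change of 1.31 ± 0.34 (adjusted p = 0.0183) and TMED3 one of 1.30 ± 0.30 (adjusted p = 0.0116). In these 4 receptors the manganese IP libraries rose more, in ratio, than the manganese inputs. For TMED7 the inputs went from 172, 171 and 131 CPM to 479, 510.0 and 564 CPM while the IP libraries went from 157, 130.4 and 102 CPM to 95.5, 101 and 67.7 CPM. Its ratio of IP to input fell 4.84-fold (change -2.27 ± 0.29, adjusted p = 0.00128). TMED7 overlaps a readthrough gene, TMED7-TICAM2, whose counts came to 2.54% of those of TMED7. The changes of LMAN2, TMED9, TMED3 and TMED7 passed under every alternative tried, and that of KDELR1 under all but 1.

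**Figure D3:**
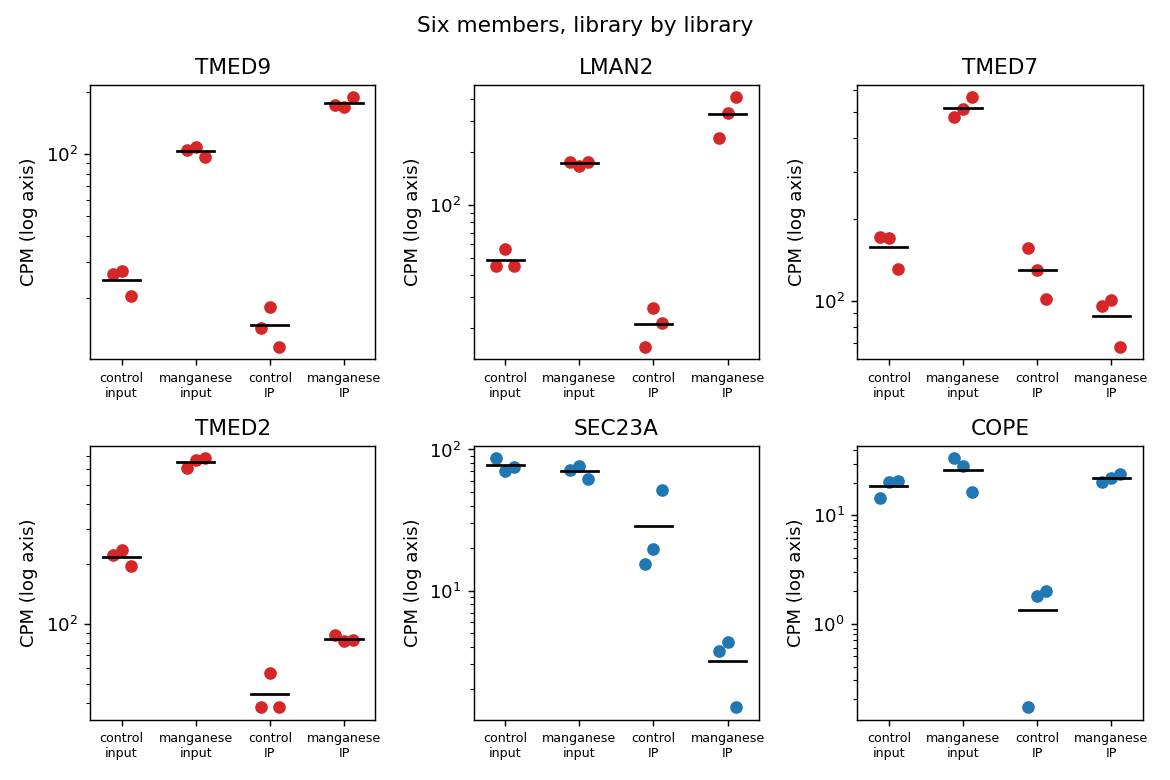
CPM (log axis) of TMED9, LMAN2, TMED7, TMED2, SEC23A and COPE in each of the 12 libraries, with points for libraries and a line for the group mean (n = 3). TMED9, LMAN2, TMED7 and TMED2 are higher in every manganese input than in every control input, whereas in the IP TMED9 and LMAN2 are highest with manganese and TMED7 is not.

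SEC23A lost most among the coat genes. Its inputs did not pass the test, at 77.5 ± 8.51 CPM in control and 69.8 ± 7.39 CPM with manganese, while its IP level went from 28.9 ± 19.5 to 3.20 ± 1.51 CPM (SD, n = 3), a change of enrichment of -3.02 ± 0.59 (edgeR adjusted p = 0.00489). Without the third control IP library the change was -2.32 (adjusted p = 0.000892), and on log2(TPM + 1) it was -1.97 and did not pass (limma adjusted p = 0.0732). COPE went the other way, with a change of 3.57 ± 0.73 (edgeR adjusted p = 0.00612), from a control IP in which 1 library held 4 counts. SEC24B measured 25.1, 19.8 and 17.2 CPM in control input, 19.3, 16.2 and 20.3 CPM in manganese input, 32.7, 21.3 and 33.2 CPM in control IP and 12.8, 11.5 and 6.55 CPM in manganese IP (change -1.34 ± 0.39, adjusted p = 0.0313). MCFD2 measured 169, 134 and 119.7 CPM in control input and, as above, lower values in the manganese IP (change -1.36 ± 0.34, adjusted p = 0.0166), and on log2(TPM + 1) its change was -0.22 (limma adjusted p = 0.806). COPB1, SEC24D and COPA had changes of -0.86, -0.83 and -0.71. The calls of SEC24D, SEC24B, COPB1, COPA and MCFD2 were lost under 14, 13, 13, 10 and 8 alternatives.

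**Figure D4:**
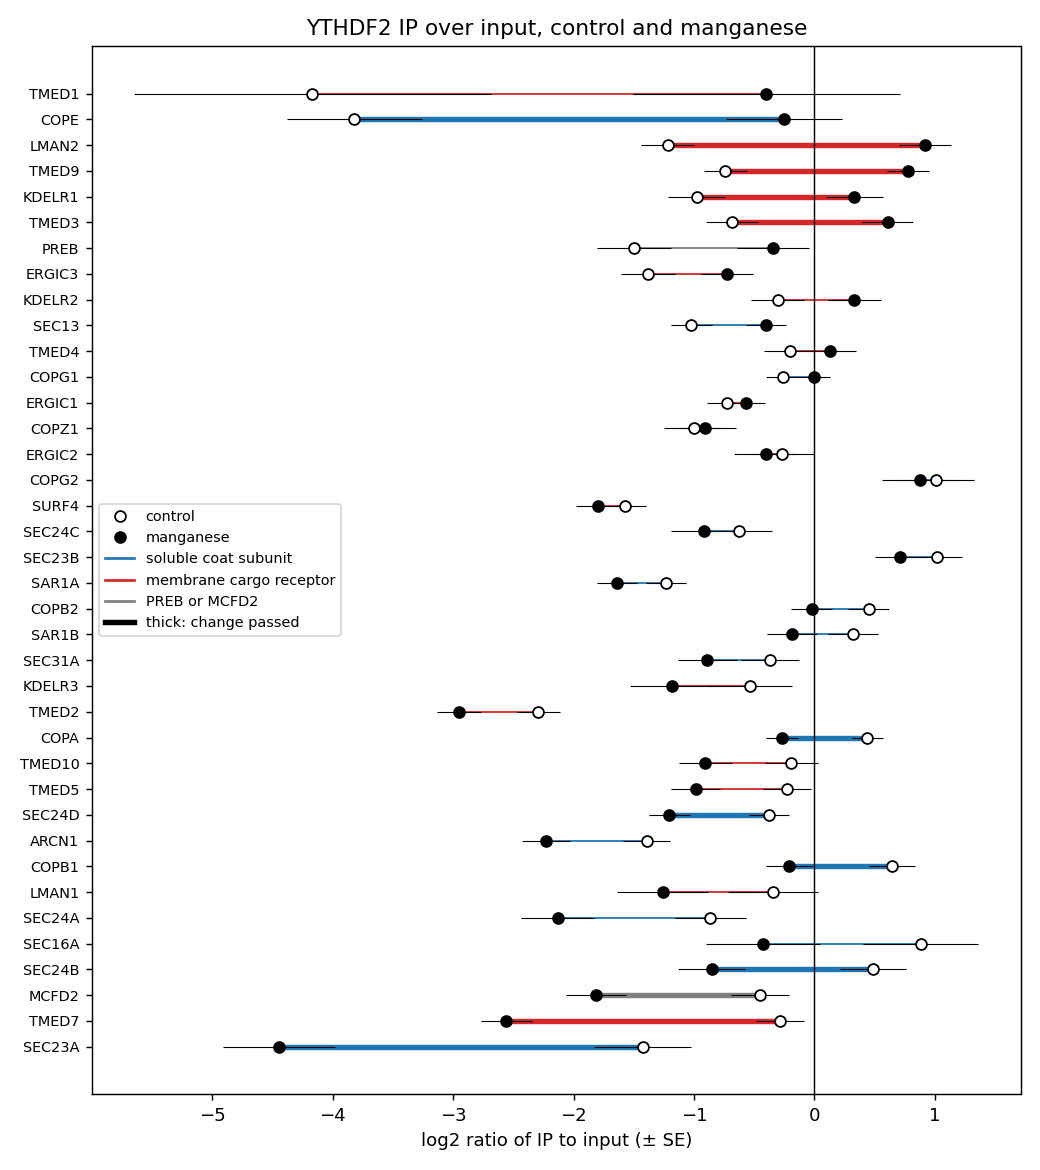
Log2 ratio of IP to input for each of the 38 measured members in control cells (open points) and manganese-treated cells (filled points), with thin bars for ± SE and a line joining each pair, thick where the change of enrichment passed (adjusted p under 0.05). Members are ordered by the change, from gains at the top, such as LMAN2 (-1.22 to 0.92), to losses at the bottom, such as TMED7 (-0.28 to -2.56) and SEC23A (-1.43 to -4.45).

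Paralogs are given side by side for this change, and differences between paralogs were not tested. SEC23B had a change of -0.30 ± 0.30 (edgeR adjusted p = 0.544) beside -3.02 for SEC23A, and on log2(TPM + 1) it was 0.34. SEC24A had -1.27 ± 0.42 (adjusted p = 0.0525) and SEC24C -0.29 ± 0.39 (adjusted p = 0.674), beside the losses of SEC24B and SEC24D. Both SEC24A and SEC24C thus missed the threshold, and the value of SEC24C was 0.0014 without the third manganese IP library. SAR1A had -0.41 ± 0.23 and SAR1B -0.51 ± 0.30 (adjusted p = 0.256 and 0.272). COPG1 had 0.26 ± 0.19 and COPG2 -0.14 ± 0.44 (adjusted p = 0.406 and 0.883), with a sign for COPG2 that turned under 5 alternatives. Among KDEL receptors, KDELR1 had 1.31, KDELR2 0.64 ± 0.31 and KDELR3 -0.65 ± 0.49 (adjusted p = 0.18 and 0.409). Estimated counts can divide reads between similar paralogs. Pseudogenes of SAR1A and TMED10 in the table each held at most 0.164% of the counts of the member, and SEC24B-AS1, antisense to SEC24B, held 2.82%.

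Among the other transport genes, 7 of 47 gained and 7 lost, against 6.94% of tested genes that gained and 10.2% that lost. The values named are a gain of RAB1B (2.12 ± 0.32, edgeR adjusted p = 0.00162), a GTPase of ER to Golgi transport, and losses of BET1 (-1.56 ± 0.49, adjusted p = 0.0447) and CNIH1 (-1.5 ± 0.27, adjusted p = 0.00322). The call of BET1, a SNARE, was lost under 20 alternatives. In control cells 7 of these 47 genes were higher in the IP and 17 lower, against 17.2% and 14.2% of tested genes. GOSR2 (log2 ratio 1.73 ± 0.21, adjusted p = 5.55e-05) and NBAS (1.5 ± 0.23, adjusted p = 0.000312) were the highest. USE1 and CREB3 were the lowest, both with control IP libraries at 0, and the call of CREB3 was lost under 11 alternatives. With manganese 4 of the 47 were higher and 15 lower, against 14.8% and 17.6% of tested genes. NBAS (1.39 ± 0.23, adjusted p = 0.000549) and ARF3 (1.38 ± 0.23, adjusted p = 0.000474) were the highest and USE1 and BET1 (-2.11 ± 0.36, adjusted p = 0.000645) the lowest. The call of USE1 with manganese was lost under 9 alternatives.

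Transcript length moved with the change of enrichment across members. An effective length per gene, taken as counts per TPM relative to the median of tested genes, had a Spearman rho of -0.56 (Pearson r = -0.43) with the change over 38 members, and of -0.21 over 14804 tested genes. These are descriptions across genes of the same 12 libraries, and genes are not independent replicates. The median of this relative length was 0.824 for both receptors and coat genes. With a correction for length, the 4 receptor gains remained 4, with a change of 2.15 for LMAN2 and -1.92 for TMED7, and the members split into 5 gains and 5 losses, with 2 receptors among the losses. The calls of change of SEC24B, COPA and MCFD2 were lost with it. The correction also ended the calls of TMED1, TMED3, TMED9, COPZ1 and COPA (0.23) in the control enrichment, of ERGIC3, SEC31A and COPZ1 in the enrichment with manganese, and of TMED7, SEC24A, ARCN1 and PREB with manganese in the IP. The same correction left 15 receptors higher and none lower with manganese in the input.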

How the data were processed

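Poly(A) RNA of the input and YTHDF2 IP RNA were measured in 12 libraries. Per the submitters' processing notes, kallisto and hg19 were used, with versions not given in the sources used here. The gene table holds estimated counts, deposited as whole numbers, and TPM values of these genes were deposited beside them. The deposited summary gives each library's fragments and the percent aligned. Gene names came from the deposited analysis table. Estimated counts were tested with edgeR 4.0.16 (R 4.3.3): filterByExpr (minimum count 10, minimum total 15) kept 14804 of 36963 genes, TMM scaled the libraries, 1 mean was fitted per group, and Benjamini-Hochberg adjustment ran over all genes tested. SE is the log2 change over the root of F. The script was tested on simulated data. The main fit did not pair libraries by replicate number. Deviations from the group means in libraries of the same number had correlations from -0.121 to 0.0532. With 3 libraries per group these values cannot decide whether libraries were paired.

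Every library's value is given for members that passed, averaged at least 5 CPM and had groups that did not overlap, up to 8 per comparison with the largest change. Separate groups of these members thus follow from the choice, and the share of all tested genes with separate groups was not counted. For other transport genes, the 2 with the largest change in each direction are named, except that 1 is not reported here. The members, lists and tests were chosen with earlier results of these data known. The alternatives used limma 3.58.1 on log2(TPM + 1) or log2(TPM + 0.1), DESeq2 1.42.0, other scalings and filters, a length correction, a replicate block and leaving out libraries. PCGF6 held 66.8% to 77.9% of TPM, so levels in TPM were rescaled without it. Estimated counts carry the error of assigning reads to genes beside the counting error. Transcript tables were not used here.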

Additional observations from a re-analysis of the deposited data

Results flagged for a closer look

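The change of the ratio of IP to input with manganese, tested in the fit across all genes as a difference between treated and control cells, passed for 12 members (edgeR's quasi-likelihood test). Gains on the log2 scale were 3.57 for COPE, 2.14 for LMAN2, 1.52 for TMED9, 1.31 for KDELR1 and 1.30 for TMED3. Losses were -3.02 for SEC23A, -2.27 for TMED7, -1.36 for MCFD2, -1.34 for SEC24B, -0.86 for COPB1, -0.83 for SEC24D and -0.71 for COPA. Of these, COPE rests on a control IP with 4, 42 and 38 counts, and SEC23A on control IP libraries at 15.5, 19.8 and 51.3 CPM. The third control IP library had the lowest share of aligned fragments, at 56.88%, and the part of that library in the other values was not tested beyond leaving it out.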

How the results depend on the processing

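With 25 alternatives, 131 values of named genes gave 3247 comparisons, of which 2909 kept direction and side of the threshold, 298 no longer passed, 24 newly passed and 16 turned. The cause was not tested in any of them.
On log2(TPM + 1) and log2(TPM + 0.1), signs turned for COPA in the control enrichment (-0.49 and -0.51), TMED5 with manganese in the IP (-0.31 and -0.40), and the changes of enrichment of SEC23B (0.34 and 0.35) and SAR1A (0.36 and 0.38). The change of SEC24C turned without the third manganese IP library (0.0014), without the third control IP and first control input libraries (0.0073) and without all 3 (0.26), and ranged from -0.52 to 0.0014 with 1 library left out. That of COPG2 turned with total counts (0.057), with a filter of 1 CPM (0.015), and without the second manganese input (0.044), first control IP (0.125) or second manganese IP library (0.0689), with a range from -0.31 to 0.125.
Counts of genes called moved as follows. With total counts, receptors in the control enrichment went from 9 to 15, coat genes with manganese from 3 to 1 in the input and from 7 to 15 in the IP. With no filter on low counts, coat genes with manganese in the input went to 1. With only the libraries compared, coat genes went from 11 to 7 in the control enrichment and from 3 to 7 with manganese in the input. This setting could not be run for the change of enrichment, which uses all 12 libraries. On log2(TPM + 1), members in the change of enrichment went from 12 to 7, coat genes there from 6 to 2, and coat genes with manganese in the IP to 13. On log2(TPM + 0.1) the last 2 were 3 and 13. Without the third control IP and first control input libraries, coat genes with manganese in the input became 5, and in the change of enrichment there were 19 members, 9 receptors and 22 other transport genes (14 over all 12 libraries). Without those and the third manganese IP library these were 7, 24, 11 and 26, with 12 coat genes.
Leaving out 1 library at a time, members called ranged from 15 to 25 (control enrichment), 17 to 27 (manganese enrichment), 16 to 22 (manganese in the input), 20 to 26 (manganese in the IP) and 7 to 20 (change). Receptors ranged from 7 to 9, 9 to 13, 15 to 16, 15 to 16 and 4 to 9, coat genes from 7 to 15, 6 to 13, 1 to 5, 5 to 9 and 2 to 9, and other transport genes from 18 to 30, 16 to 23, 8 to 13, 18 to 27 and 9 to 21. Calls of coat genes in the change fell to 2 without the third control input, any manganese input or the third manganese IP library.
With the replicate number as a block, members called were 21, 23, 18, 21 and 10, against 21, 24, 18, 24 and 12 without the block. No count moved by over 1.5 times. The numbers gave correlations of at most 0.0532, and 3 of 6 IP libraries correlated best with the input of their number. Low counts limit TMED1 and COPE.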

Other observations

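Genes of the machinery that inserts and modifies proteins at the ER were looked at after the receptor values had been seen, so they carry no test as a list. Of 20 genes of the SEC61 translocon, the signal peptidase and the oligosaccharyltransferase, 15 rose and none fell with manganese in the input (edgeR adjusted p under 0.05). Over all tested genes 11.3% rose and 3.63% fell there. The median of the 20 genes was 1.47 on the log2 scale. In the IP 14 of the 20 rose and none fell, with a median of 1.26, against 20.4% of tested genes that rose and 22.5% that fell. Lower levels in the IP than in the input were not particular to the receptors. In control cells 11 of the 20 were lower and 1 higher (median log2 ratio -1.32), against 14.2% and 17.2% of tested genes. With manganese 11 were lower and 0 higher (median -0.73), against 17.6% and 14.8%. STT3A, a catalytic subunit of the oligosaccharyltransferase, had the largest rise in the input (2.70 ± 0.32, adjusted p = 7.01e-05), and SEC61B, a small subunit of the translocon, did not pass (0.36 ± 0.42, adjusted p = 0.697).

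The other transport genes were also divided, after their values had been seen, by how their proteins reach the membrane. Of 8 chosen as having a signal sequence or several membrane spans, 7 were measured and all 7 rose with manganese in the input, with a median of 1.37. Over all tested genes 11.3% rose and 3.63% fell. Of 9 tail-anchored SNAREs, 8 were measured, none rose and 1 fell, with a median of -0.0023. These 2 groups cover only part of the list, and the 8 chosen are not all the listed genes whose proteins have several membrane spans. SEC22A and SEC22C, which have several spans but stood in neither group, had changes of 0.50 and 0.028. Neither passed (edgeR adjusted p = 0.518 and 0.954), so the 7 of 7 depends on leaving them out. NBAS, NSF, CREB3L2 and USO1, also in neither group, rose by 1.60, 0.55, 0.52 and 0.51 on the log2 scale. The division was chosen with the values known, and what it means was not tested.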
